A study of Mus musculus with 4 samples.

Results

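Ccl5 and Ccl9 encode secreted chemokines of the CC family, and Ccr2 encodes a chemokine receptor. They were taken as the probe sets whose only platform gene symbol is Ccl5, Ccl9 or Ccr2, which gave 7 of 10861 probe sets and 3 of 6404 genes. Ccl5 had 1 probe set, Ccl9 had 2 and Ccr2 had 4. The 3 genes were chosen by their difference between the KIT mutants on these same arrays, so their values in that comparison are a description and carry no test.

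RNA came from EML, a line of mouse blood progenitors whose growth normally needs SCF (stem cell factor), which binds and activates KIT, a receptor tyrosine kinase. All cells carried a KIT mutant brought in with a pLXSN retrovirus, were selected with geneticin, were grown without growth factor until autonomous and were sorted for KIT; no array here held unmodified or wild-type KIT cells. The mutants were Del417-419insY, in the extracellular domain, and D816V, in the phosphotransferase domain. The 4 groups were Del417-419insY without SCF, D816V without SCF, Del417-419insY with SCF at 250 ng/mL for 48 hours and D816V with the same SCF treatment, with 1 Affymetrix array each. The labels give a time for the SCF arrays alone. No value below therefore has a replicate, each line is 1 transduced population, and precision is limited by having 4 arrays in all. Whether repeat populations of a mutant would differ as these lines do was not tested, since line and mutation cannot be told apart. The deposited values are log2 levels, each probe set around a zero of its own, so values of a probe set can be compared across arrays and not with those of another probe set. Of the 10 stem and progenitor markers listed for EML cells, 5 were measured (Kit, Slamf1, Gata2, Mpo and Sox4), and relative values cannot show whether any of them is expressed.

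Chemokines are small secreted proteins that direct the migration of leukocytes by binding receptors with a G protein of the inhibitory class, often while held on glycosaminoglycans. CCL5 (RANTES) and CCL9 both bind the receptor CCR1. CCR2 is the main receptor of CCL2 and is known for the exit of monocytes from bone marrow; it is also found on mast cell progenitors. Ccl5 and Ccl9 are neighbours in the chemokine cluster of mouse chromosome 11, with no protein-coding gene between them in RefSeq order, and Ccr2 lies in a receptor cluster on chromosome 9.

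The sequence before the start of Ccl9 is shown because both Ccl9 probe sets stood higher in D816V cells and genes of transcription factors that bind such sites were measured. The RefSeq promoter table of GRCm38.p6 held 1 entry for Ccl9, 1 for Ccr2 and 0 for Ccl5. The 250 bases before the Ccl9 start are at chr11:83578637-83578886, minus strand, and capitals mark every match to a TATA box (TATAAA), an AP-1 site (TGANTCA) or the NF-kB consensus, searched on both strands.
Ccl9: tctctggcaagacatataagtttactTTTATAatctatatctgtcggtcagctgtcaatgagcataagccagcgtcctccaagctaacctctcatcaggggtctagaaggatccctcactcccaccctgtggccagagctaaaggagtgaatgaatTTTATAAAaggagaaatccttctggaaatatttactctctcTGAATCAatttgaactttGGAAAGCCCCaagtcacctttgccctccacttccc
The NF-kB match began at base -35 from the gene start and lay on the strand opposite to the gene, and 3.9% of the 32851 promoter windows of this length held such a match. The AP-1 match began at base -53, with a match in 6.75% of windows. TATA box matches began at bases -224, -94 and -92, the last pair overlapping, with a match in 12.4% of windows. Letters of a STAT site (TTCNNNGAA, in 7.02% of windows), an IRF site (a pair of GAAA repeats, 2.98%) or a PU.1 site (GAGGAAG, 10.6%) were not in the Ccl9 window. The Ccr2 window matched none of the 6 motifs; it lies inside the annotated gene, where another transcript begins earlier, and is not printed. A match describes letters only.

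The mutant lines were compared to ask what separates cells driven by a KIT change outside the membrane from those driven by a change in the kinase. All 7 probe sets stood higher in D816V than in Del417-419insY cells in both conditions. Over all probe sets 4.74% were 2-fold or more higher in D816V in both conditions, as all 7 were, and nothing is read from this because the genes were picked for it. By size in single conditions, 6.1% of all probe sets were 2-fold or more higher without SCF and 6.09% with SCF.

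The Ccl5 probe set, 1418126_at, read -0.55 for Del417-419insY and 1.92 for D816V without SCF, and -0.09 and 2.62 with SCF. Its 2 D816V arrays were the high ones. The difference was 2.48 on the log2 scale without SCF, a 5.56-fold difference, and 2.71 with SCF, a 6.55-fold difference. CCL5 is a chemoattractant of T cells, monocytes and eosinophils, and among 10861 probe sets its mean difference ranked 156 from the top.

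Ccl9 probe set 1417936_at read -1.79 in Del417-419insY and 0.42 in D816V cells without SCF, and -1.77 and -0.08 with SCF. Probe set 1448898_at read -2.09 and 0.27 without SCF, and -2.05 and -0.69 with SCF. Both were low on the Del417-419insY arrays at nearly the same value whether SCF was present or not, and both were highest in D816V cells without SCF. CCL9 (MIP-1 gamma) is a rodent chemokine made by myeloid cells. The difference between lines was 2.22 and 2.37 for the 2 probe sets without SCF, or 4.65-fold and 5.16-fold. With SCF it was 1.68 and 1.37, or 3.21-fold and 2.58-fold. After cyclic loess scaling the values were 2.50 and 2.72 without SCF and 2.34 and 2.17 with SCF, so the gap was still narrower with SCF but by less. Both probe sets were made against the accession AF128196 and are not independent of each other's target.

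Ccr2 had the widest gap and the least uniform probe sets. Probe set 1421186_at read -3.08 and 1.21 in Del417-419insY and D816V cells without SCF, and -4.47 and 0.14 with SCF. Probe set 1421187_at read -3.05 and 0.81 without SCF, and -4.17 and -0.61 with SCF. These probe sets put the Del417-419insY array with SCF lowest of all. Probe set 1421188_at read -1.01 and 0.84 without SCF, and -2.52 and 0.15 with SCF. The fourth, 1460067_at, read -0.74 and 0.35 without SCF, and -0.75 and 0.36 with SCF. It separated the lines and stayed level with SCF in both.

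In fold terms the Ccr2 difference ran from 2.12-fold (1460067_at) to 19.4-fold (1421186_at) without SCF, and from 2.16-fold to 24.4-fold with SCF. The means over both conditions were 4.45, 3.71, 2.26 and 1.10 on the log2 scale for 1421186_at, 1421187_at, 1421188_at and 1460067_at. The first 3 were designed on the accession BB148128 and the last on BB324415, so the probe set with the smallest difference was also the one with another target. A single mean for the gene, 2.88 or 7.35-fold, hides this range. Among the 214 genes with 4 or more probe sets, the median range between probe sets in this difference was 0.45, against 3.35 for Ccr2. Tsc22d1 alone had a wider range (3.41), and it was named after its values were seen. Ccr2 was picked for this same difference, so nothing is read from its place among these genes. Which transcripts each probe set reads was not tested, since no probe sequence was used here.

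**Figure D1:**
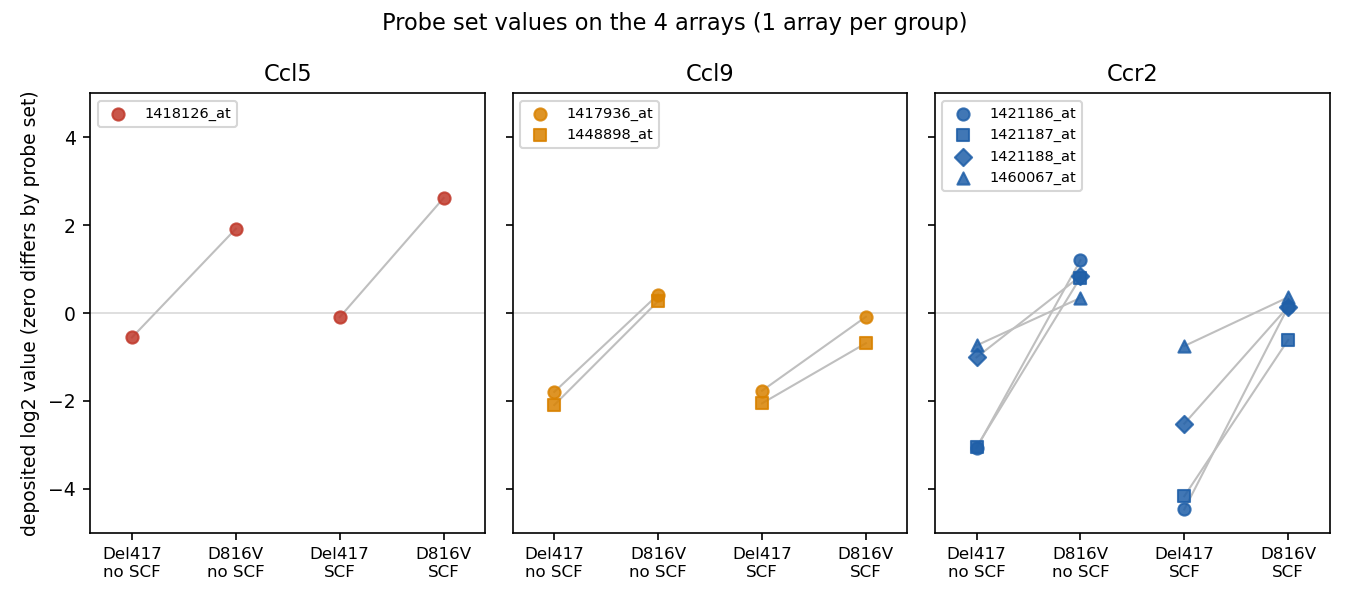
Deposited log2 values (vertical axis, zero differing by probe set) of Ccl5, Ccl9 and Ccr2 on the 4 arrays (horizontal axis), 1 marker shape per probe set, with grey lines joining the mutants within a condition. Each D816V point lies above the Del417-419insY point it is joined to. Ccr2 probe sets 1421186_at and 1421187_at drop to -4.47 and -4.17 in Del417-419insY cells with SCF.

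**Figure D2:**
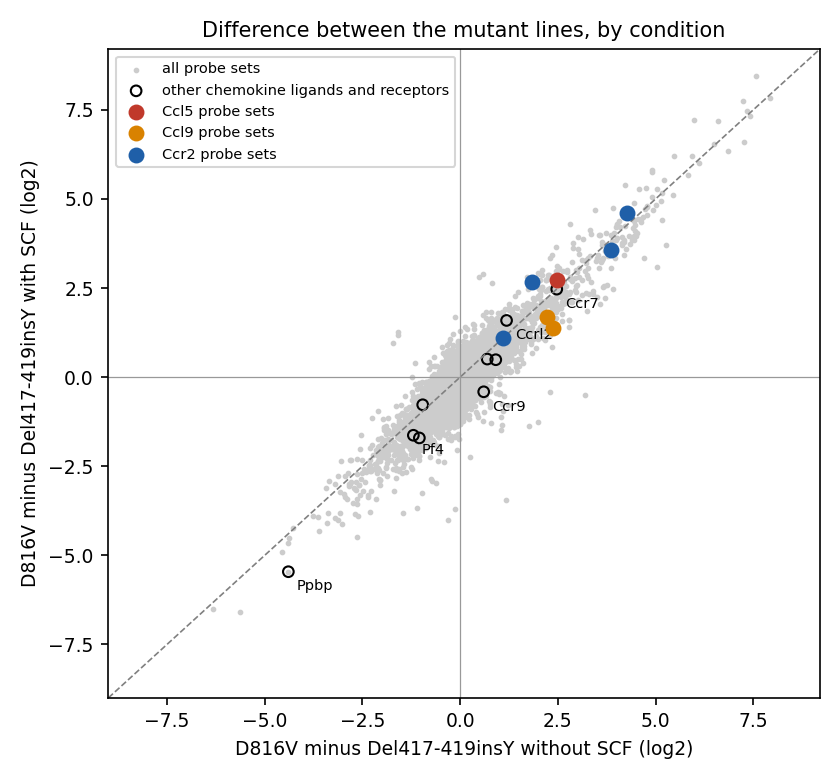
Log2 difference D816V minus Del417-419insY without SCF (horizontal) and with SCF (vertical) for all 10861 probe sets (grey), the 7 probe sets of Ccl5, Ccl9 and Ccr2 (filled) and other chemokine ligands and receptors (open); the dashed line marks equal differences. Ccl9 lies below the line, Ccl5 and 3 of 4 Ccr2 probe sets above it, and Ppbp at the far low end.

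SCF treatment asks what the ligand adds once KIT is mutated, and this contrast did not choose the genes. Ccr2 fell with SCF in 3 of its 4 probe sets, Ccl5 was higher on both SCF arrays without passing the test, and Ccl9 values with SCF were lower in D816V cells and level in Del417-419insY cells, also without passing. The test was limma on all 10861 probe sets with genotype and SCF as additive terms, and a call is a Benjamini-Hochberg adjusted p under 0.05. It called 0.543% of probe sets higher and 4.67% lower with SCF; by size, 2.08% were 2-fold or more lower in the Del417-419insY and 2.68% in the D816V line. The fit has 1 residual degree of freedom, the difference between the SCF responses of the lines, moderated by a prior pooled over all probe sets that weighs more (5.92 degrees of freedom), so its p-values cover no spread between repeat cultures.

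For Ccr2 the SCF difference at 1421186_at was -1.39 in the Del417-419insY line and -1.06 in the D816V line (limma mean -1.23, SE 0.15, adjusted p = 0.011). At 1421187_at it was -1.12 and -1.42 (limma mean -1.27, SE 0.148, adjusted p = 0.0098). At 1421188_at it was -1.51 and -0.69 (limma mean -1.10, SE 0.206, adjusted p = 0.03). These are falls of 2.17-fold to 2.85-fold in the Del417-419insY line and of 1.62-fold to 2.67-fold in the D816V line, each lower in 2 of 2 lines. The fourth probe set, 1460067_at, differed by -0.01 and 0.01 and was not called (limma adjusted p = 1). The 3 that fell share 1 target accession, so they are no 3 separate observations of the gene. Under quantile normalization the limma adjusted p was 0.0354, 0.0504 and 0.06, so 1421186_at alone passed; under cyclic loess 1421188_at missed at 0.0602. The mean of the 4 probe sets was lower by -1.01 and -0.79 and did not pass (limma adjusted p = 0.13 over genes).

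With SCF, Ccl5 differed by 0.46 in the Del417-419insY line and by 0.70 in the D816V line, or 1.38-fold and 1.62-fold. Both were higher, and the mean of 0.58 (SE 0.143) missed the threshold (limma adjusted p = 0.071). It passed in 3 of 7 alternatives. The limma adjusted p ran from 0.0305 (filter at the 25th percentile of mean relative values) to 0.156 (test over genes). In the D816V response it ranked 161 from the top of 10861 probe sets, and in the Del417-419insY response 553.

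Ccl9 differed by 0.03 and 0.04 with SCF in Del417-419insY cells at 1417936_at and 1448898_at. In D816V cells the values were -0.51 and -0.96. The limma means of -0.24 and -0.46 were not called (adjusted p = 0.46 and 0.31). Whether the lines differ in this response could not be tested with 1 array per group. After cyclic loess the D816V values were -0.19 and -0.60, and those in Del417-419insY turned to -0.04 and -0.05.

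**Figure D3:**
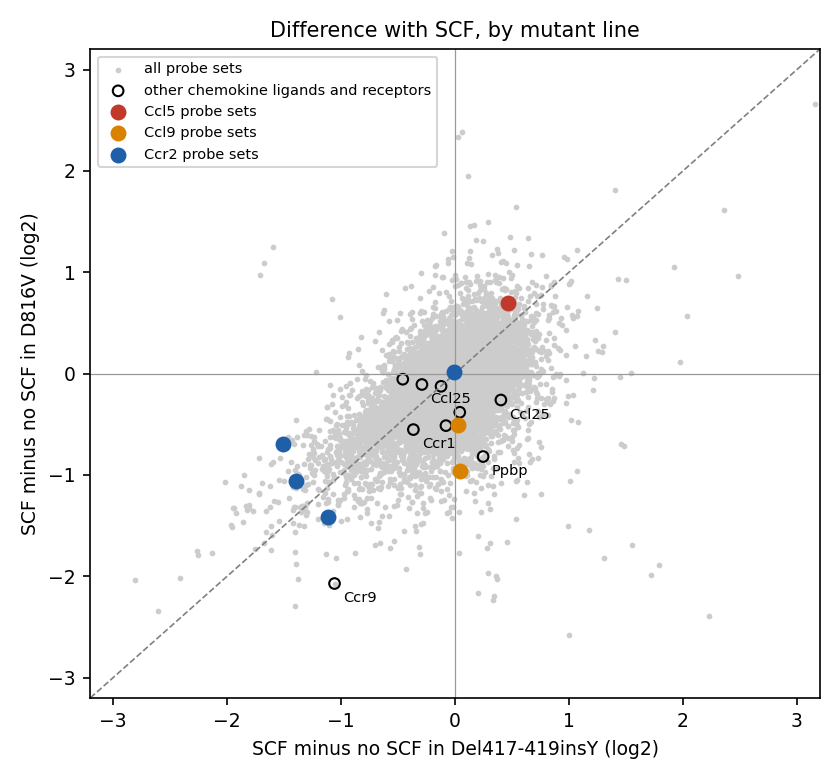
Log2 difference SCF minus no SCF in Del417-419insY (horizontal) and D816V cells (vertical) for all probe sets (grey), the probe sets of Ccl5, Ccl9 and Ccr2 (filled) and other chemokine ligands and receptors (open); the dashed line marks equal responses. Of the 4 Ccr2 probe sets 3 lie at -1.12 or below in Del417-419insY and -0.69 or below in D816V cells, and the fourth lies at the origin.

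All 3 genes stood higher in the D816V line, while their SCF values ran in different directions. Over the 4 arrays, after each gene's mean was taken off, the Euclidean distance was 1.26 between Ccl5 and Ccl9, 1.22 between Ccl9 and Ccr2 and 1.51 between Ccl5 and Ccr2. Other genes lay nearer to each of them. Txnrd3, Dglucy and Gpsm2 were nearest to Ccl5, at 0.198, 0.265 and 0.322. Rab32, Slfn10-ps and F2rl2 were nearest to Ccl9, at 0.164, 0.243 and 0.281. Cd300lf, Zfp52 and Bpifc were nearest to Ccr2, at 0.398, 0.426 and 0.483. With 4 arrays many genes can share a pattern, and the distances are a description.

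Of 38 listed chemokine ligands, 5 were kept by the filter, and those besides Ccl5 and Ccl9 ran the other way between the lines. All 4 of their probe sets were lower in D816V cells by limma at an adjusted p under 0.05, where 26.3% of all probe sets were called lower and 16.7% higher; their median difference was -1.40, against -0.14 for all probe sets. Ppbp, a platelet granule chemokine, read 1.85 and -2.54 without SCF and 2.10 and -3.36 with SCF (Del417-419insY first), and its mean difference was -4.93 (SE 0.244, limma adjusted p = 1.9e-05). Pf4, platelet factor 4, differed by -1.42 (SE 0.159, limma adjusted p = 0.00077). Ccl25, the ligand of CCR9, differed by -1.38 and -0.87 at its 2 probe sets. None of the 4 probe sets was called for SCF. The CCR2 ligands Ccl2, Ccl7 and Ccl12 and the other members of the list were not analysed here.

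Of 25 chemokine receptors, 6 were measured. Besides Ccr2, 4 of 5 probe sets were higher in D816V cells, none was lower and 1 was not called by limma, where 16.7% of all probe sets were called higher; their median difference was 0.70. After cyclic loess all 5 were called higher, with a prior that follows the mean relative value 3 and without the SCF term 2. Ccr7, which guides cells to lymph nodes, read -1.39 and 1.08 without SCF and -1.51 and 0.96 with SCF. Its difference of 2.47 (5.54-fold, SE 0.136, limma adjusted p = 3.1e-05) was close to that of Ccl5 and the same in both conditions. Ccrl2, a receptor-like protein that binds chemerin, was 2.62-fold higher, with 1.19 without and 1.59 with SCF. Ccr1, the receptor that CCL5 and CCL9 have in common, differed by 0.69 without and 0.51 with SCF and passed the test (mean 0.60, SE 0.141, limma adjusted p = 0.015). Cxcr4, the receptor for CXCL12, was 1.62-fold higher on average (0.91 without and 0.49 with SCF).

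Ccr9 was the receptor not called between the lines in the deposited values, at 0.60 without and -0.41 with SCF. After cyclic loess Ccr9 too was called higher in D816V cells. Its one probe set, 1427419_x_at, is of the type that may read similar transcripts too. It fell with SCF in both, by -1.06 in the Del417-419insY line and -2.07 in the D816V line (limma adjusted p = 0.018), the one other receptor probe set besides those of Ccr2 that was called for SCF. Ccr1 differed by -0.37 and -0.55 with SCF and was not called (limma adjusted p = 0.12). In the Ccr2 cluster Ccr1 was the one other receptor measured among the 5 protein-coding neighbours on each side, and its difference between lines was well under that of Ccr2. The 5 neighbours of Ccl5 and Ccl9 on either side were, apart from each other, not analysed here.

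**Figure D4:**
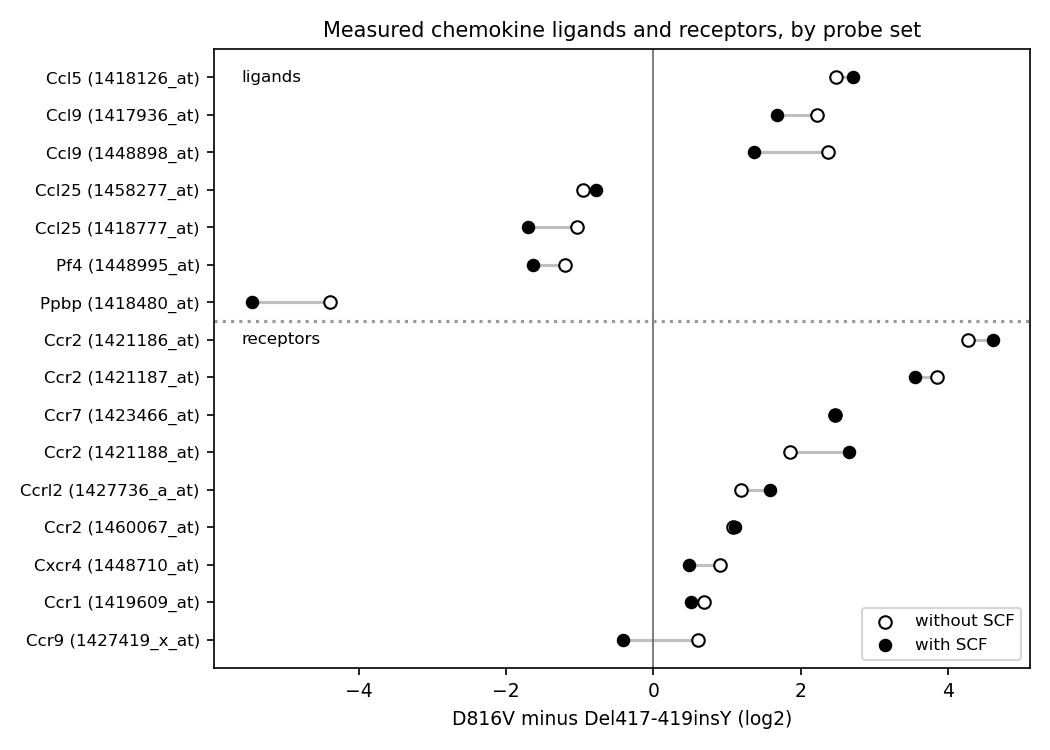
Log2 difference D816V minus Del417-419insY (horizontal) without SCF (open) and with SCF (filled) for each measured probe set of chemokine ligands (above the dotted line) and receptors (below). Ccl5 and Ccl9 lie right of 0 while Ccl25, Pf4 and Ppbp lie left of it, and Ccr9 is the one receptor that crosses 0.

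Genes that pass on the signal of chemokine receptors were called about as often as all probe sets (16.7% higher and 26.3% lower). Of 38 probe sets of 23 signalling genes, 4 were higher and 12 lower in D816V cells by limma, with a median of -0.05. Cyclic loess gave 10 and 10. By gene mean on the deposited values, 4 were higher and 5 lower of 23 genes. The split thus depended on the scaling and on counting probe sets or genes. Rasgrp2, which activates the integrin regulator RAP1, was lower by -4.53, -2.55 and -0.87 at its 3 probe sets. Gnaq, a G protein alpha subunit, was lower at all 5, by -2.29 to -3.44. Gng2, a G protein gamma subunit, was lower at 2 of 3 (-1.24 and -1.29, with -0.20 at the other). Gng12 was higher at 1 of 2 (1.24, with 0.23 at the other), and Gna15 was higher by 0.64.

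Among the genes that switch receptors off, 3 probe sets were higher and 9 lower of 14, of 8 genes, against 16.7% and 26.3% over all probe sets, with a median of -0.52. Cyclic loess and quantile normalization each gave 3 and 7. By gene mean 2 were higher and 4 lower of the 8 genes. Rgs2, which speeds GTP hydrolysis by G proteins, was lower at all 3 probe sets (-1.14, -1.16 and -1.46), and the receptor kinase gene Grk3 at all 3 (-0.97 to -1.33). Rgs1 was lower by -0.61. Arrb2, beta-arrestin 2, was higher at both probe sets (0.88 and 0.66), and Rgs10 was higher by 0.78.

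Genes for glycosaminoglycan carriers and for enzymes that trim chemokines gave 3 higher and 1 lower of 9 probe sets. Over all probe sets 16.7% were called higher and 26.3% lower, or 43.0% either way. With 9 probe sets these counts are a description. Dpp4, a protease that clips the amino terminus of CCL5, was 7.25-fold lower in D816V cells: it read 2.73 and 0.37 without SCF and 3.27 and -0.09 with SCF, Del417-419insY first (SE 0.235, limma adjusted p = 0.00018). Ndst2, which sulphates the heparin of mast cell granules, was 2.61-fold higher. Cma1, a mast cell chymase, was 16.8-fold higher and Chst12 was 1.43-fold higher.

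Transcription factors that act on chemokine genes gave 12 higher and 11 lower of 42 probe sets, of 29 genes, with a median of -0.17. Over all probe sets 16.7% were called higher and 26.3% lower. The lower share was thus that of the background, and the higher share was above it. By gene mean 10 were higher and 4 lower of 29 genes, against 1147 and 1579 of all 6404 genes. Irf7, an interferon regulatory factor, was 7.39-fold higher (2.35 without and 3.42 with SCF, limma adjusted p = 0.00021). Fosl2 and Junb, parts of AP-1, were higher by 2.27 and 1.35, while Fos was lower by -1.24. Nfkbie, an inhibitor and target of NF-kB, was higher at both probe sets (1.28 and 1.27). The measured NF-kB subunit genes Rela, Relb and Nfkb2, named after their values were seen because of the match before Ccl9, stood at -0.23 (not called), 0.54 (called higher), and 0.25 and -0.14 at the 2 probe sets of Nfkb2 (neither called). None of the 42 was called for SCF by limma; over all probe sets 2315 had an unadjusted p under 0.05 for SCF.

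Among markers of cell types, some were called between the lines, where 16.7% of all probe sets were called higher and 26.3% lower. The marker lists, like the other lists, were chosen with earlier results of these data known, so their counts are a description. Of 11 monocyte and macrophage markers 2 were measured, and they went opposite ways: Cd68, a lysosomal glycoprotein, differed by 2.81 and Lyz2, lysozyme, by -0.86. The mean of their relative values ran from -1.11 to -0.91 on the Del417-419insY and from -0.16 to 0.09 on the D816V arrays, and stands for neither gene. Such means can be compared between arrays and not between lists. Of 14 T and NK cell markers Gzma (8.01, called) and Nkg7 (0.09, not called) were measured, with mean levels from -0.49 to 0.06 and from 3.79 to 3.88. The high D816V means came from Gzma, at 8.15 without and 7.94 with SCF, where Nkg7 read -0.39 and -0.35. Of 11 mast cell and basophil markers 8 were measured, at 11 probe sets, with 7 higher and 2 lower, both of these Kit, and mean levels from -1.91 to -1.31 and from -0.20 to 0.90. In that list 4 of 11 probe sets were also called lower with SCF, against 4.67% of all probe sets, among them Mcpt4 (-1.96) and Tpsb2 (-1.64), mast cell proteases. Of 6 dendritic markers 3 were measured and all were higher (Ccr7, also counted among the receptors, Cd74 and Itgax at 2.47, 1.85 and 0.93). Of 8 fibroblast markers only Pdgfrb was measured and it was not called. Of the stem and progenitor markers, 4 probe sets were higher and 8 lower of 12, with a median of -1.44: Kit was lower by -1.67 and -1.18, Mpo by -1.64 and Sox4 by -1.31 to -2.12 at 5 probe sets, while Slamf1 was higher by 1.41 and 1.83 and Gata2 by 0.44 and 0.48. By gene mean 2 of these 5 genes were higher and 3 lower. The mean of their relative values ran from -0.03 to 0.14 on the Del417-419insY and from -0.60 to -0.36 on the D816V arrays. Whether the Kit probe sets read the cells' own gene, the retroviral KIT or both was not tested. The part of any of these cell types in the values of Ccl5, Ccl9 and Ccr2 was not tested. In a bulk sample more cells of a type and more RNA per cell cannot be told apart.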

How the data were processed

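RNA of 4 EML cultures was hybridised to Affymetrix M430 2.0 arrays, which were read with an Affymetrix scanner and GCOS software, per the design text. Per the submitters' processing notes the authors used RMA, which gives the deposited log2 values; its version, the level each probe set was set against and the filter that left 10861 of 45101 probe sets are not given in the sources used here, and the log base was taken from RMA. Array medians ran from -0.20 to -0.02. Symbols came from the platform annotation (9633 probe sets with 1 symbol, 264 with several, 964 with none) and were updated by gene ID to RefSeq (GRCm38.p6; 11 IDs without a match).

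Differences were taken per probe set, as D816V minus Del417-419insY or as SCF minus none. limma 3.58.1 in R 4.3.3 (lmFit, eBayes on genotype + SCF) was fitted to all 10861 probe sets; its prior was an SD of 0.147 with 5.92 degrees of freedom. It was tested on simulated data drawn from that same prior, with no SCF effect and no spread between cultures. Such data cannot show how calls would hold in repeat cultures. Named genes were the members, all measured chemokine ligands and receptors, up to 5 genes of each other list by size of genotype difference and up to 2 by SCF difference, the 3 genes nearest in pattern, and 5 neighbours on each side. The members and the 12 lists (233 genes) were chosen with earlier results of these data known. Alternatives were other scalings, priors, a gene mean, a filter, a 3-fold threshold and no SCF term; brightness, background and probe sequences were not used here.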

Additional observations from a re-analysis of the deposited data

Results flagged for a closer look

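One contrast gave opposite signs in the 2 lines or conditions at 7 of 16 chemokine ligand and receptor probe sets, members included. With 1 array per group none of these was tested. The contrast was SCF at all of them except Ccr9, where it was genotype. Of all 10861 probe sets, 34% had SCF responses of opposite sign in the lines, near the SCF share among these 16. Nothing is read from the count. No such share was taken for genotype differences. The SCF response in D816V minus that in Del417-419insY cells was -0.533 and -0.997 (log2) for Ccl9 at 1417936_at and 1448898_at. It was 0.028 for Ccr2 at 1460067_at, where both responses lay next to 0. It was -0.66 for Ccl25 at 1418777_at, -1.07 for Ppbp and -0.42 for Cxcr4. For Ccr9 the genotype difference in the deposited values changed sign between conditions, by -1.01, while both lines fell with SCF.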

How the results depend on the processing

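All 42 genotype differences of the 7 probe sets under the 3 other scalings had D816V higher, from 1.17 to 5.47 on the log2 scale. Nothing is read from this direction, because the genes were picked for it. Of 84 differences in all, 4 SCF responses within 0.05 of 0 changed sign (Ccl9 at both probe sets and Ccr2 1460067_at, in Del417-419insY cells), and 4 moved by 1.5-fold or more, all genotype differences with SCF after cyclic loess (Ccl9 to 2.34 and 2.17, Ccr2 1421186_at to 5.47 and 1421187_at to 4.44). The filter at the 25th percentile of mean values dropped both Ccl9 and 3 Ccr2 probe sets. These means are of relative values, so neither this filter nor the prior that follows the mean sorts by brightness. Scaling moved the median difference between lines over all probe sets from -0.11 to between -0.06 and -0.01 without SCF, and from -0.17 to between -0.03 and 0.01 with SCF. Over all probe sets limma called 1810 higher and 2855 lower in D816V; cyclic loess gave 2383 and 2200, quantile normalization 2176 and 2261, and centring 2518 and 2153. By gene mean it called 1147 and 1579 of 6404 genes, and without the SCF term 862 and 1210. For SCF it called 59 higher and 507 lower. The higher ones were 129 after cyclic loess, 150 after centring, 149 with the filter and 99 with the prior that follows the mean. The lower ones were 493 after cyclic loess, 515 after centring and 277 after quantile normalization. By gene mean it called 0 and 0, with 1186 genes at an unadjusted limma p under 0.05. Without SCF 663 probe sets were 2-fold or more higher and 561 lower (403 and 268 genes; 352 and 189 past 3-fold). With SCF 661 were higher and 973 lower (406 and 475 genes; 342 and 323 past 3-fold); the scalings gave 741 and 682 (loess), 713 and 736 (quantile) and 826 and 715 (centring). The causes were not tested, except that gene means test fewer features. With 1 array per group there are no replicate numbers to pair by; the additive fit itself matches arrays by line and condition. Leaving out an array would leave a group empty, and signal over background was not available for these relative values, so what dimness limits was not examined.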
